A study of Mus musculus with 8 samples.

Results

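The genes described here are 10 cathepsins, namely Ctsa, Ctsb, Ctsc, Ctsd, Ctse, Ctsh, Ctsl, Ctso, Ctss and Ctsz, out of 13744 genes with values in Ly6C+ classical monocytes of mouse bone marrow. They were chosen by gene name, and all 10 were among the 13006 genes tested. Ctso was chosen by its measured level in Irf2 KO, so its values in Irf2 KO are given as a description, with no test. The 4 genotypes were wild type, Bcl6 cKO (a conditional knockout), Irf2 KO and Nr4a1 KO, with 2 libraries each and 8 in all, and the study was about factors in the development of nonclassical monocytes from such cells. The labels give neither the deleted exons, the Cre driver, the strain, the age nor the number of mice. Whether replicates came from separate mice is not given either, so p-values reflect the spread among these libraries alone, and that spread may be technical.

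Cathepsins are the main proteases of the lysosome, the acidic compartment in which cells digest proteins. Most are cysteine proteases, while cathepsins D and E are aspartic proteases and cathepsin A is a serine carboxypeptidase. They are made as inactive precursors, carried to the lysosome mainly by mannose 6-phosphate receptors, and held in check outside it by cystatins and stefins. Mononuclear phagocytes carry much of them and use them to digest cargo, to trim antigens and to activate other proteases.

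The promoter windows of Ctso, Ctss and Ctsc are shown first. Ctso and Ctss were the only cathepsins with a match to the motif marked below, among those with a window. The windows of Ctsa, called lower in Irf2 KO below, held no match and are not shown. Ctso was nearly lost in Irf2 KO and Ctsc was at its highest there, but neither Ctsc nor Ctss passed the test. Each window runs from 250 bases before to 50 bases after the RefSeq start on GRCm38.p6, on the plus strand and 5′ to 3′. Ctso lies at chr3:81932351-81932650, Ctss at chr3:95526536-95526835 and Ctsc at chr7:88277835-88278134. Capitals mark matches to GAAA, any 2 bases and again GAAA, the core of the element that interferon regulatory factors such as Irf2 bind.

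Ctso: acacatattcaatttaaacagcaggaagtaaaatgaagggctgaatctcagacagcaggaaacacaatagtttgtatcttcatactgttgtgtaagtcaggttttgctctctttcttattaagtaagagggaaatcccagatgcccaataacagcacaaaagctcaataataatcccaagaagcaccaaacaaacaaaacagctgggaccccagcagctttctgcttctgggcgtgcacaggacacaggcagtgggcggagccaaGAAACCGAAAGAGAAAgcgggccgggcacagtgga
Ctss: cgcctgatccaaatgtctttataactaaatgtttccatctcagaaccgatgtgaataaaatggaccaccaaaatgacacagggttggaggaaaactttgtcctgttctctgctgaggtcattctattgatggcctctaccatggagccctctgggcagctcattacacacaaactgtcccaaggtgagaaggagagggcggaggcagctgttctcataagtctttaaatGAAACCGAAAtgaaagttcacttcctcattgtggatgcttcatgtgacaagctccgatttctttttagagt
Ctsc: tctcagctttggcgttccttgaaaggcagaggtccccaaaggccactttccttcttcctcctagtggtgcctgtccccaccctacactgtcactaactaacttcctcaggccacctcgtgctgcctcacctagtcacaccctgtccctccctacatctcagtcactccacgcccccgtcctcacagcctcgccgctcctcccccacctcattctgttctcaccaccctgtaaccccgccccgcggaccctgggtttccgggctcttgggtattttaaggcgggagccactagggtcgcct

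The Ctso window held 2 matches that overlap, at bases 16 to 25 and 22 to 31 after the start. The Ctss window held 1 match, at bases -21 to -12, and the Ctsc window held none. Both strands were searched, and this motif was found in 3.44% of 32851 promoter windows and in 3.99% of 27025 genes. Windows were given for 7 of the 10 cathepsins, and those of Ctsa, Ctsd, Ctsl and Ctsz held no match. Ctsb, Ctse and Ctsh had no window, so no motif was searched for in these genes, all called lower in Irf2 KO below. The E-box CACGTG, which the lysosomal regulator TFEB can bind, was found in the windows of Ctsa (2 matches), Ctsd (2) and Ctsl (1), against 7.15% of all windows. A match is a string of letters and does not show binding.

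Libraries held 46617756 to 62633123 reads in genes. Levels are given as CPM, the reads of a gene scaled by the authors to a common library size, and 1 CPM stood for 47.9 to 61.8 reads. Monocyte genes were abundant in all libraries, with Ly6c2 at 2884 to 6247 CPM and Ccr2 at 911 to 1724 CPM. Of the targeted genes, Nr4a1 stood at 24.9 and 39.1 CPM in wild type and 4.99 and 7.90 CPM in Nr4a1 KO. It was as low in Irf2 KO, at 6.04 and 5.72 CPM, and stood at 22.5 and 23.6 CPM in Bcl6 cKO. Nr4a1 reads thus set Nr4a1 KO apart from wild type but not from Irf2 KO. Irf2 stood at 145 and 141 CPM in wild type and 90.2 and 103.5 CPM in Irf2 KO. Bcl6 stood at 25.3 and 24.9 CPM in wild type and was higher, at 92.4 and 84.4 CPM, in the libraries labelled Bcl6 cKO. Values are per gene and the deleted exons are not known, so Bcl6 and Irf2 reads do not check their labels, and directions below rest on the labels as given.

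In wild type monocytes the 10 cathepsins took 0.725% of the reads in both libraries. Per kilobase of exon (all GENCODE M21 exons of a gene merged), the highest level was that of Ctss, the protease that trims the MHC class II invariant chain, at 1177 ± 158 CPM per kb (SD, n = 2). Ctsz, a carboxypeptidase, followed at 737 ± 4.8 CPM per kb (SD, n = 2) and Ctsb, the most studied of the cysteine cathepsins, at 275 ± 1.6 CPM per kb (SD, n = 2). Ctsa was at 206 ± 5.34, Ctsh at 177 ± 2.3, Ctsc at 172 ± 36.2 and Ctsd at 101 ± 1.6 CPM per kb (SD, n = 2). The low members were Ctsl at 5.92 ± 0.48, Ctse at 5.70 ± 0.55 and Ctso at 3.57 ± 0.51 CPM per kb (SD, n = 2). Ctsc differed from both Ctsa and Ctsh by less than its own spread, and Ctsl from Ctse by less than theirs, so these orders are not resolved. Merged exons include long rare isoforms, which lowers the level per kb of genes that have them.

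**Figure D1:**
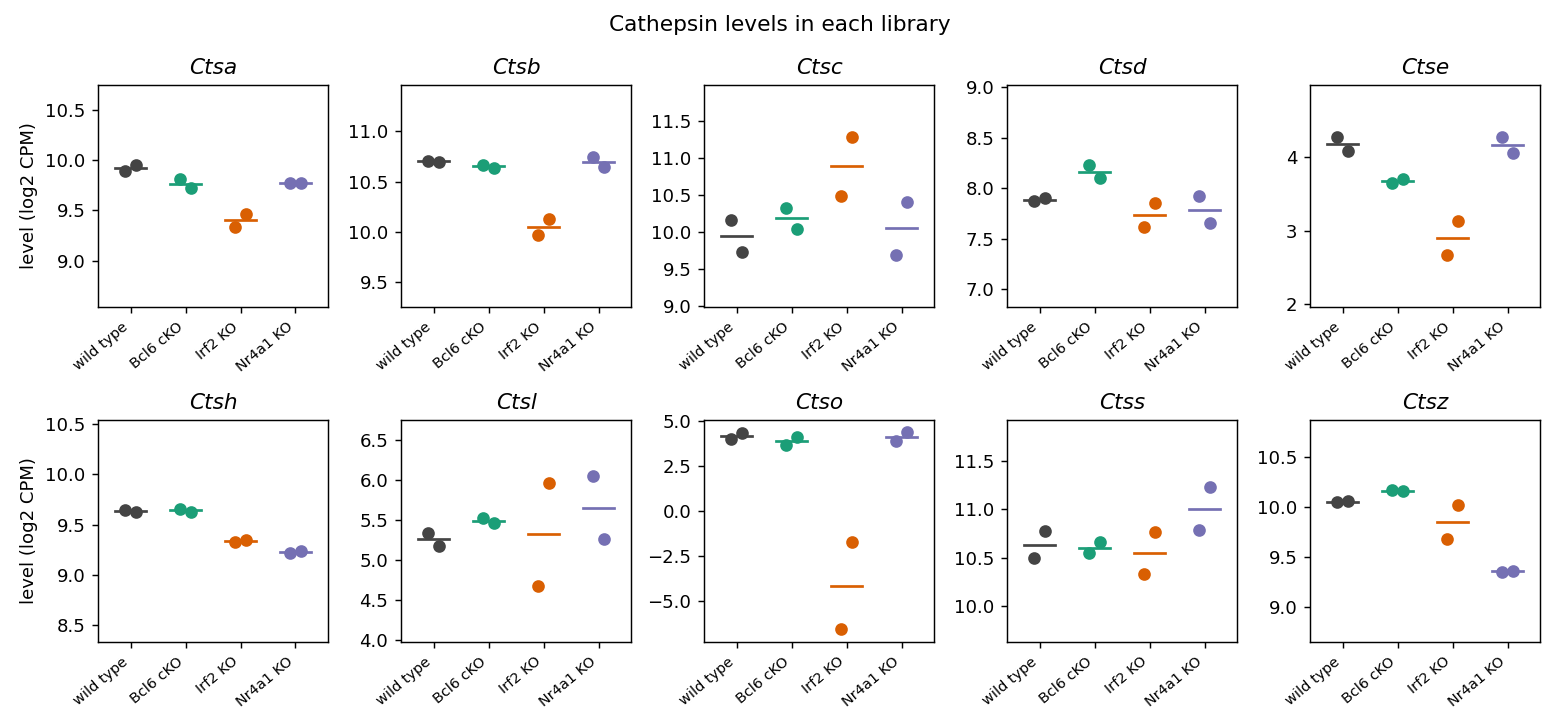
Level of each cathepsin (log2 CPM, vertical axes that differ between panels) in the 8 libraries by genotype, with a point for each library and a bar for the mean of 2. Ctsa, Ctsb, Ctse and Ctso are lowest in Irf2 KO, Ctsz is lowest in Nr4a1 KO, and Ctsc, Ctsl and Ctso have replicates far apart in Irf2 KO.

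Ctso, a little studied cysteine protease, was close to absent in both Irf2 KO libraries. It had 953 and 1034 reads in the wild type libraries, 790 and 914 in Bcl6 cKO, 762 and 1011 in Nr4a1 KO, and 0 and 16 in Irf2 KO. The Irf2 KO libraries lay apart from the other 6, which overlapped. The 16 reads of Irf2 KO replicate 2 (exact Poisson interval at 95% of 9.15 to 26.0 reads, counting error only) put that library 62.4-fold below the wild type mean, and the 0 reads of replicate 1 put it at least 295-fold below, with 3 reads as the limit per library. The fitted log2 fold change of -8.35 depends on the 0.5 reads added to each count and was -4.07 on the log2(CPM + 1) scale.

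Ctso in the other knockouts did not pass the test. Its log2 fold change against wild type was -0.28 ± 1.21 (SE, adjusted p = 0.925) for Bcl6 cKO and -0.04 ± 1.21 (SE, adjusted p = 0.987) for Nr4a1 KO. These errors take in the gap between the Irf2 KO replicates, since the 4 genotypes share an estimate of the spread. With only the 2 groups compared, the errors were 0.20 and 0.23 and the adjusted p-values 0.446 and 0.937. The sign in Nr4a1 KO changed with the scaling, to 0.089 after median centring and 0.10 after quantile normalization.

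Ctso (ENSMUSG00000028015) spans bases 81932601 to 81956725 of chromosome 3 on GRCm38, plus strand. Its nearest protein-coding neighbours in GENCODE M21 are Pdgfc and Glrb on the side of its start and Tdo2 and Asic5 on the side of its end. Tdo2, on the minus strand, has its 3′ end 365 bases past the end of Ctso, and the others are 25565 to 1018941 bases away. These 4 neighbours are not analysed here.

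The genes whose log2 levels followed Ctso most closely over the 8 libraries (Pearson r, given as a description) were Map1lc3b (r = 0.994), Il15ra (0.992), BC005624 (0.985), Crebrf (0.978) and the pseudogene Gad1-ps (0.976). All are lowest in both Irf2 KO libraries, which follows from their choice by correlation with Ctso. The depth of the drop differs. Il15ra, a subunit of the interleukin 15 receptor, had 1002 and 950 reads in wild type and 14 and 76 in Irf2 KO. Map1lc3b, the autophagosome protein LC3B, went from 9.13 and 9.16 log2 CPM in wild type to 8.51 and 8.80 in Irf2 KO. Of these 5 genes, 4 had promoter windows, and 0 of the 4 held the GAAA motif.

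**Figure D2:**
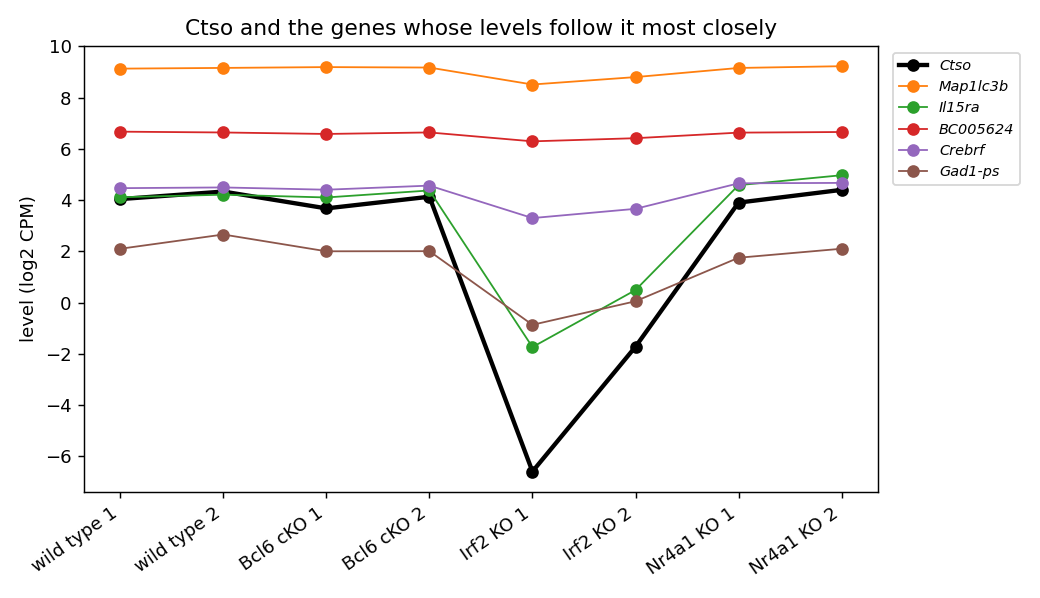
Level (log2 CPM) of Ctso and of the 5 genes most correlated with it in each of the 8 libraries, named by genotype and replicate. All 6 genes are at their lowest in the Irf2 KO libraries, which for the 5 follows from their choice by correlation. Ctso drops the furthest, to 0 and 16 reads.

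Among the other 9 cathepsins, 4 fell and 0 rose in Irf2 KO (limma, adjusted p under 0.05), against 12.2% of all genes tested called lower, 9.15% called higher and 21.4% in either direction. After median centring 3 cathepsins were lower, without Ctsh, and 1, Ctsc, higher, while the split of all genes turned from 1190 higher and 1588 lower to 1651 and 1195 (1407 and 1225 after quantile normalization). Their median log2 fold change was -0.21, beside -0.04 for all genes. These 4 were Ctsb, Ctsa, Ctse and Ctsh, and the 5 not called ran from -0.21 for Ctsz to 0.95 for Ctsc.

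Ctsb, a cysteine protease that cuts both within proteins and from their ends, had 1006 and 1119 CPM in Irf2 KO. The wild type libraries had 1670 and 1656 CPM, those of Bcl6 cKO 1624 and 1593, and those of Nr4a1 KO 1710 and 1601. Both Irf2 KO libraries thus lay below the other 6. The log2 fold change against wild type was -0.65 ± 0.09 (SE, adjusted p = 0.00292), and it stayed called under all alternatives run. Ctsb also differed from Bcl6 cKO (-0.60 ± 0.09, adjusted p = 0.00646) and from Nr4a1 KO (-0.64 ± 0.09, adjusted p = 0.00146). The call against Bcl6 cKO ended without Bcl6 cKO replicate 1 (adjusted p = 0.0608) or 2 (0.0566).

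Ctsa, the carboxypeptidase that also protects lysosomal neuraminidase and beta-galactosidase, had 648 and 709 CPM in Irf2 KO. It had 951 and 987 CPM in wild type, 897 and 845 in Bcl6 cKO and 873 and 876 in Nr4a1 KO, so the Irf2 KO libraries were again the lowest. The log2 fold change against wild type was -0.52 ± 0.08 (SE, adjusted p = 0.00564), whichever library was left out still called. Corrected for length and GC content, it was -0.27 (adjusted p = 0.0819). The differences from Bcl6 cKO (-0.36 ± 0.08, adjusted p = 0.0352) and Nr4a1 KO (-0.37 ± 0.08, adjusted p = 0.0166) were called too. The first call ended in each fit that lacked a library of wild type, Irf2 KO or Bcl6 cKO. The second ended without Irf2 KO replicate 1 or Nr4a1 KO replicate 1. Without the variance trend both calls ended (limma, adjusted p = 0.121 and 0.0754). The first also ended after the GC content and length correction (0.0679), and the second with only the 2 groups compared (0.0518).

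Ctse, an aspartic protease found outside the lysosome in many cells, had 6.35 and 8.78 CPM in Irf2 KO and 19.3 and 16.8 CPM in wild type. Nr4a1 KO, at 19.2 and 16.6 CPM, overlapped wild type, and Bcl6 cKO lay between at 12.4 and 13.0 CPM. The fall in Irf2 KO was 2.41-fold (-1.27 ± 0.19, SE, adjusted p = 0.00429) and the difference from Nr4a1 KO was of like size (-1.26 ± 0.19, adjusted p = 0.00271). Both stayed called under all alternatives run. The difference between Irf2 KO and Bcl6 cKO (-0.77 ± 0.19, adjusted p = 0.0431) ended when any library of wild type, Bcl6 cKO or Irf2 KO was left out (adjusted p = 0.0504 to 0.204), without the variance trend (0.0762) and by limma voom (0.0536). In Bcl6 cKO against wild type Ctse was at -0.50 ± 0.19 (adjusted p = 0.178), with both libraries below both of wild type.

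Ctsh, an aminopeptidase, had 641 and 652 CPM in Irf2 KO and 597 and 606 CPM in Nr4a1 KO, below the 802 and 787 CPM of wild type and the 808 and 791 CPM of Bcl6 cKO. Replicates were close in every genotype, and the knockouts of Irf2 and Nr4a1 did not overlap the other libraries. It fell by 0.30 ± 0.08 on the log2 scale in Irf2 KO (SE, adjusted p = 0.0274), a call that ended without any 1 of the wild type and Irf2 KO libraries (adjusted p = 0.0951 to 0.112) and after median centring (0.0973), the GC content and length correction (0.0959), without the variance trend (0.103) and with only the 2 groups (0.0510). In Nr4a1 KO it fell by 0.40 ± 0.08 (adjusted p = 0.00887). That call ended without the variance trend (limma, adjusted p = 0.0620) and without wild type replicate 1, where the change was -0.39. Irf2 KO against Bcl6 cKO was called as well (-0.31 ± 0.08, adjusted p = 0.0425). This call ended without the variance trend (limma, adjusted p = 0.144) and after median centring (0.0555). It also ended when any library of wild type, Bcl6 cKO or Irf2 KO was left out (log2 differences of -0.29 to -0.32). Bcl6 cKO was higher than Nr4a1 KO by 0.41 ± 0.08 (adjusted p = 0.0154). This call ended without the variance trend (limma, adjusted p = 0.107) and with only the 2 groups compared (0.0683). It also ended without Bcl6 cKO replicate 1 or 2 or Nr4a1 KO replicate 1 (log2 differences of 0.40 to 0.43).

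Ctsc, the dipeptidyl peptidase that activates the granule proteases of myeloid cells, was at its highest in Irf2 KO, with 1445 and 2500 CPM. The other genotypes overlapped, with 1146 and 849 CPM in wild type, 1287 and 1061 in Bcl6 cKO and 828 and 1362 in Nr4a1 KO. The log2 fold change of 0.95 ± 0.30 (SE) against wild type had an adjusted p of 0.0521. It was 0.0348 to 0.0497 under a filter of 4 CPM, log2(CPM + 1), median centring, quantile normalization, library weights, only the 2 groups, limma voom and, in the authors' deposited table, their own test. The adjusted p was 0.0530 with no filter, 0.0850 after the GC content and length correction and 0.114 without the variance trend. Without Irf2 KO replicate 2 the change was 0.55, and without replicate 1 it was 1.34. Ctsc in Irf2 KO did not pass the test against Bcl6 cKO (0.70 ± 0.30, adjusted p = 0.170) or Nr4a1 KO (0.84 ± 0.30, adjusted p = 0.0742).

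In Nr4a1 KO 2 of the 10 cathepsins fell, Ctsz and Ctsh, and 0 rose, against 11% of all genes called lower, 3.86% called higher and 14.8% in either direction. The lean of all genes depended on scaling, with 502 higher and 1429 lower as fitted, 1175 and 1171 after median centring and 1066 and 1220 after quantile normalization. The median of the 10 was -0.02, beside 0.01 for all genes. Median centring raised all log2 fold changes in Nr4a1 KO by 0.125, and by 0.095 in Irf2 KO.

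Ctsz, the carboxypeptidase also called cathepsin X, had 655 and 657 CPM in Nr4a1 KO. It had 1057 and 1067 CPM in wild type and 1151 and 1141 CPM in Bcl6 cKO, and 818 and 1036 CPM in Irf2 KO. The Nr4a1 KO libraries lay below the other 6. The fall was 1.62-fold (-0.70 ± 0.11, SE, adjusted p = 0.00374) and stayed called under all alternatives run. Nr4a1 KO was also below Bcl6 cKO, with a log2 difference of 0.81 ± 0.11 (Bcl6 cKO minus Nr4a1 KO, adjusted p = 0.00363), called under all alternatives run. Irf2 KO minus Nr4a1 KO was 0.49 ± 0.11 (adjusted p = 0.0157), which became 0.32 without Irf2 KO replicate 2. The call ended there, and also without the variance trend, with only the 2 groups compared and after the GC content and length correction. Irf2 KO against wild type was at -0.21 ± 0.11 (adjusted p = 0.219).

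Ctss and Ctsl, both endopeptidases, were not called in any comparison in the fit of group means. Ctss had 1766 and 2398 CPM in Nr4a1 KO and 1447 and 1750.5 CPM in wild type (0.37 ± 0.18, SE, adjusted p = 0.211). Irf2 KO, with 1290.5 and 1744 CPM of Ctss, minus Nr4a1 KO was -0.46 ± 0.18 (adjusted p = 0.107), which became -0.68 (adjusted p = 0.0379) without Nr4a1 KO replicate 1. Ctsl had 25.7 and 62.3 CPM in Irf2 KO and 66.5 and 38.4 CPM in Nr4a1 KO, around the 40.6 and 36.2 CPM of wild type. Its Irf2 KO replicates lay on both sides of wild type, with a log2 fold change of 0.06 ± 0.38 (SE, adjusted p = 0.924), and that of Nr4a1 KO was 0.40 ± 0.38 (SE, adjusted p = 0.529).

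In Bcl6 cKO 0 of the 10 cathepsins were called, against 1.4% of all genes called higher, 3.61% called lower and 5.01% in either direction. At an unadjusted p under 0.05 the count was 1 of 10 (limma), which is Ctse, beside 2798 of all 13006 genes, and 0 were called by limma voom or in the authors' deposited table. The log2 fold changes ran from -0.50 to 0.28. The highest was that of Ctsd, the aspartic protease that digests bulk lysosomal protein, at 300.0 and 274 CPM against 234 and 239 CPM in wild type (0.28 ± 0.12, SE, adjusted p = 0.238). Ctsd in Irf2 KO (196 and 232 CPM) minus Bcl6 cKO was -0.42 ± 0.12 (adjusted p = 0.0644).

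**Figure D3:**
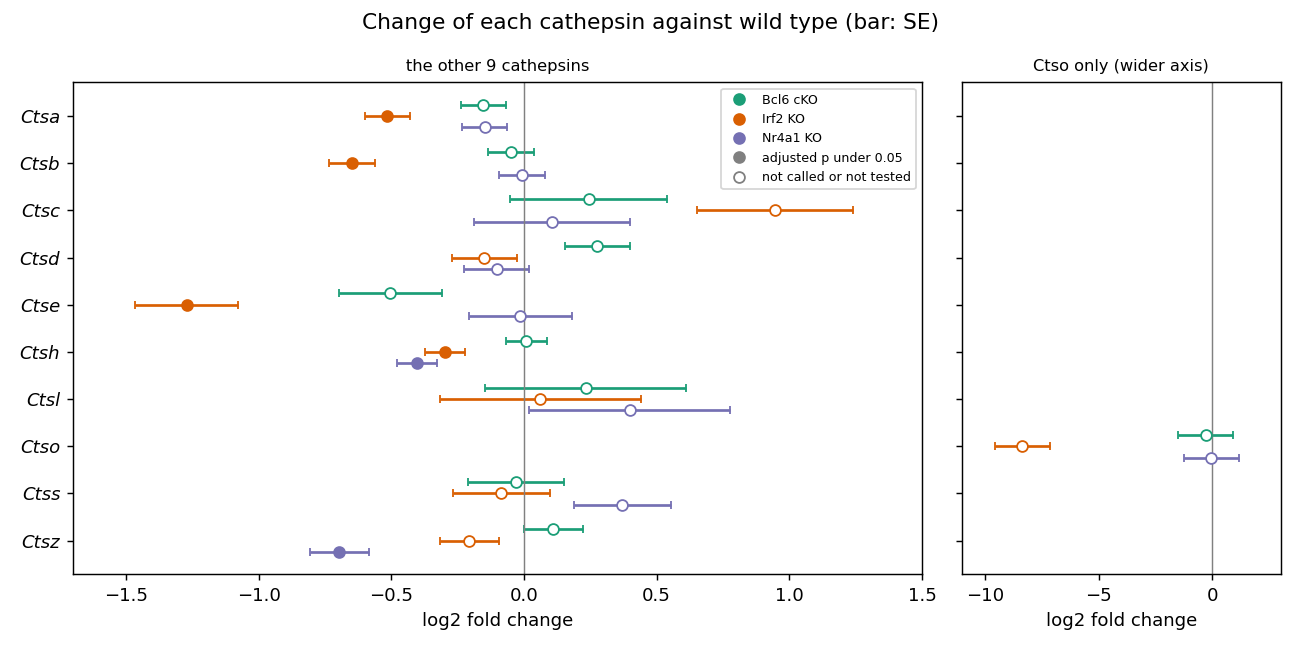
Log2 fold change (horizontal axis, with its SE as a bar) of each cathepsin against wild type in Bcl6 cKO, Irf2 KO and Nr4a1 KO, with Ctso on a wider axis of its own. Filled points passed an adjusted p of 0.05, and open points did not or, for Ctso in Irf2 KO, were not tested. The filled points are Ctsa, Ctsb, Ctse and Ctsh in Irf2 KO and Ctsh and Ctsz in Nr4a1 KO, all to the left of 0.

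Between knockouts, 4 of the 9 cathepsins without Ctso were called in Irf2 KO minus Bcl6 cKO (all lower, against 5.81% of all genes called lower, 3.88% higher and 9.69% in either direction). In Irf2 KO minus Nr4a1 KO 3 were lower and 1 higher, against 10% and 12.3% of all genes and 22.4% in either direction. In Bcl6 cKO minus Nr4a1 KO 2 of 10 were called, both higher, against 4.96% of all genes called higher, 0.807% lower and 5.77% in either direction. These comparisons share their libraries with those against wild type.

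How the reads of the family were shared out among its genes is given as a description, with no test. Ctsc took more reads than any other cathepsin in both Irf2 KO libraries, while Ctsb or Ctss did so in the other 6. The ratio of Ctsc to Ctsb in CPM was 0.686 and 0.513 in wild type, 0.792 and 0.666 in Bcl6 cKO, 0.484 and 0.851 in Nr4a1 KO, and 1.44 and 2.23 in Irf2 KO. The ratio of Ctsz to Ctsb was 0.383 and 0.410 in Nr4a1 KO, below the 0.633 and 0.644 of wild type. The share of all reads taken by the family was 0.616% and 0.787% in Irf2 KO, on both sides of the 0.725% of wild type, and was 0.711% and 0.799% in Nr4a1 KO and 0.754% and 0.730% in Bcl6 cKO.

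**Figure D4:**
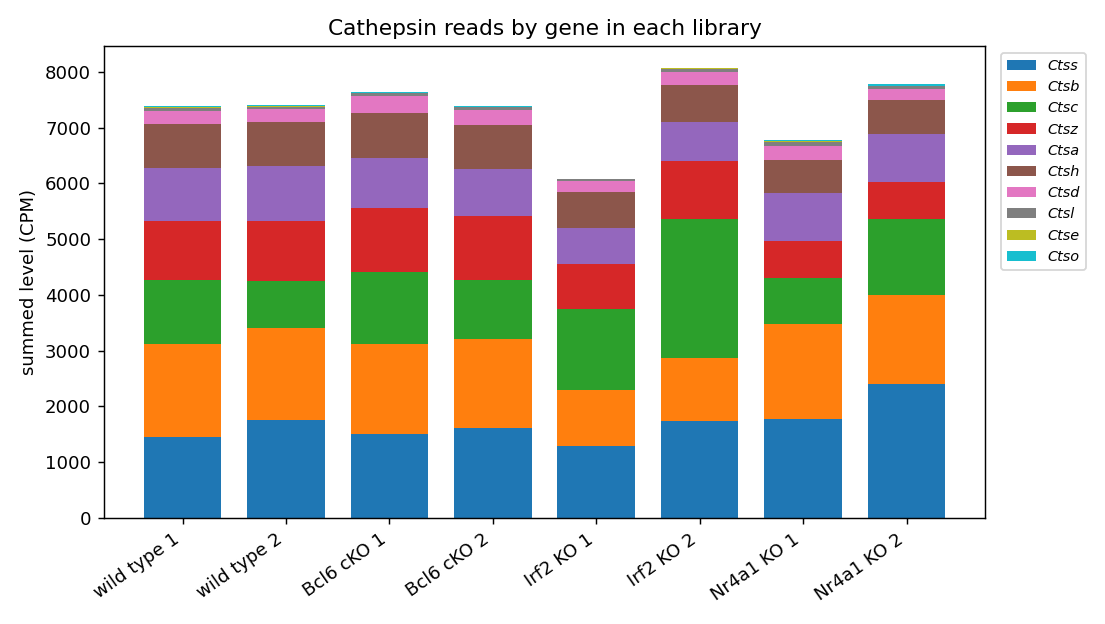
Summed level of the 10 cathepsins in CPM (vertical axis from 0) in each library, with a coloured part for each gene. The Ctsc part is larger than those of Ctsb and Ctss in both Irf2 KO libraries, and the Ctsz part is smallest in both Nr4a1 KO libraries.

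Genes that act with the cathepsins were examined by list. Of 13 other cathepsin genes listed 1 was tested, Ctsg, a serine protease of primary granules that cathepsin C activates. Ctsg rose in Irf2 KO (187 and 246 CPM, against 64.1 and 68.9 in wild type, log2 fold change 1.69 ± 0.15, SE, adjusted p = 0.00115). It rose in Nr4a1 KO too (96.8 and 114 CPM, 0.66 ± 0.15, adjusted p = 0.0172), a call that ended without wild type replicate 1 or 2 or Nr4a1 KO replicate 2 (up to 0.0857).

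Of 9 tested inhibitors (cystatins, stefins and serpins), 2 rose and 1 fell in Irf2 KO, beside 9.15% of all genes called higher and 12.2% lower, with a median log2 fold change of 0.00 beside -0.04 for all genes. Cst7, cystatin F, which is known to act on cathepsin C, rose by 0.86 ± 0.21 (29.3 and 47.3 CPM, against 19.1 and 22.0, adjusted p = 0.0221). Cstb, stefin B, rose by 0.41 ± 0.10 (adjusted p = 0.0267), and Stfa1 fell from 164 and 37 reads in wild type to 2 and 8 reads (adjusted p = 0.0195). Leaving out either wild type library or the second Irf2 KO library ended the calls of Cst7 and Cstb (adjusted p up to 0.104 and 0.158), and leaving out the first library of either genotype ended that of Stfa1 (up to 0.119). In Nr4a1 KO 1 fell and 0 rose, beside 11% of all genes called lower, with a list median of 0.40 beside 0.01 for all genes. It was Cst3, cystatin C, at 1302 and 1737 CPM against 2219 and 2654 CPM in wild type (-0.69 ± 0.14, adjusted p = 0.0132), a call that ended without wild type replicate 2 (0.0923). In Bcl6 cKO 0 of the 9 were called (limma).

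Of 13 tested genes of sorting, processing and lysosomal regulation, 3 fell and 0 rose in Irf2 KO, with a median of -0.36 beside -0.04. Of all genes 12.2% were called lower there and 9.15% higher. The calls of this list in either direction were a share near the 21.4% of all genes. Tfeb, the master regulator of lysosomal genes, had 12.8 and 18.1 CPM in Irf2 KO and 12.6 and 13.2 CPM in Nr4a1 KO, against 29.0 and 39.3 CPM in wild type. It fell by 1.15 ± 0.21 on the log2 scale in Irf2 KO (adjusted p = 0.00877, and up to 0.0585 when wild type 2 or Irf2 KO 1 was dropped) and by 1.39 ± 0.21 in Nr4a1 KO (adjusted p = 0.00307). Its relative Tfe3 (-0.61 ± 0.14, adjusted p = 0.0168) and Grn, progranulin (-0.39 ± 0.11, adjusted p = 0.0411), were the other falls in Irf2 KO, and neither was called after the GC content correction or without several of the libraries (adjusted p up to 0.0865 and 0.215). In Nr4a1 KO Tfeb, Nagpa (-0.58 ± 0.14, adjusted p = 0.0259), which finishes the mannose 6-phosphate tag, and Grn (-0.49 ± 0.11, adjusted p = 0.0200) fell and 0 rose. Of all genes 11% were called lower there, 3.86% higher and 14.8% in either direction. The list median was -0.37 beside 0.01. Nagpa and Grn were not called there after the same correction, nor without wild type replicate 2 (adjusted p up to 0.144 and 0.109 without a library). In Bcl6 cKO only Mitf, another relative of Tfeb, was called (0.84 ± 0.18, adjusted p = 0.0321), and leaving out either wild type or either Bcl6 cKO library ended that call (adjusted p up to 0.213). Lgmn, legumain, which cuts cathepsin precursors, was at -0.53 ± 0.19 in Irf2 KO (adjusted p = 0.0752).

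Of 6 proteins that cathepsins process, 2 rose and 2 fell in Irf2 KO, beside 9.15% of all genes called higher and 12.2% lower, with a median of -0.81 beside -0.04. The granule proteases Prtn3 (1254 and 1805 CPM, wild type 507 and 558, adjusted p = 0.00165) and Elane (1419 and 1679 CPM, wild type 779 and 937, adjusted p = 0.00371), both activated by cathepsin C, rose. Itgb2, the beta 2 integrin chain, fell 2.14-fold (adjusted p = 0.00250), and Tlr7, an endosomal RNA sensor, fell by 1.31 ± 0.31 (adjusted p = 0.0214, up to 0.124 when wild type 2 or Irf2 KO 1 was dropped). Cd74, the invariant chain that cathepsin S trims, had 55.9 and 16.4 CPM in Irf2 KO and 133 and 257 CPM in wild type (-2.61 ± 0.84, SE, adjusted p = 0.0570), while its Nr4a1 KO libraries were far apart, at 370 and 2576 CPM. In Bcl6 cKO Elane was the only call (0.53 ± 0.12, adjusted p = 0.0474, up to 0.264 without a library of wild type, Bcl6 cKO or Irf2 KO), and in Nr4a1 KO 0 of the 6 were called (limma).

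Of 6 other lysosomal peptidases 3 fell in Irf2 KO and 0 rose, beside 12.2% of all genes called lower there, with a median of -0.37 beside -0.04, while 0 were called in Bcl6 cKO and Nr4a1 KO. Cpq, a lysosomal carboxypeptidase, had 18 and 20 reads in Irf2 KO against 1135 and 1034 in wild type (-5.71 ± 0.28, adjusted p = 0.000152). Prcp, which removes residues after proline, and Napsa, an aspartic protease related to cathepsin D, fell by 0.46 ± 0.12 and 0.36 ± 0.09 (adjusted p = 0.0264 and 0.0267). Both of these calls ended after median centring, and also when wild type 2 or either Irf2 KO library was dropped (adjusted p up to 0.121 and 0.150).

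**Figure D5:**
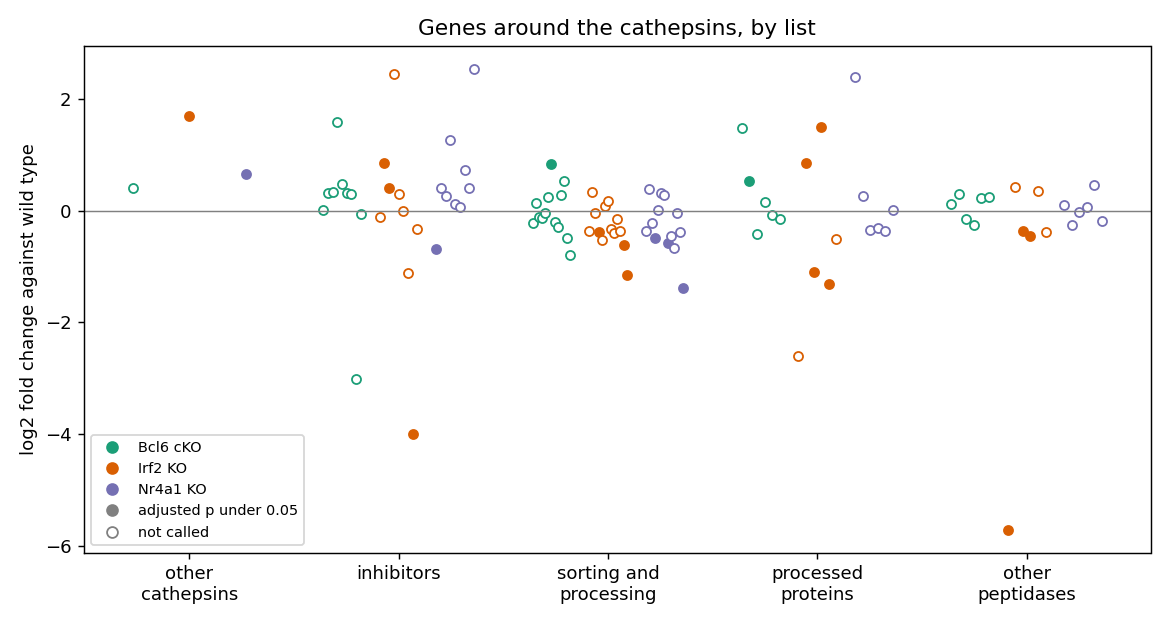
Log2 fold change against wild type (vertical axis) of the tested genes of 5 lists around the cathepsins, by knockout, with filled points for an adjusted p under 0.05. The lowest filled point is Cpq in Irf2 KO, at -5.71, and Tfeb is the lowest of the sorting and processing list in Irf2 KO and Nr4a1 KO.

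Markers of other cells moved in the same libraries, and their part in the cathepsin values was not tested. In bulk samples, fewer cells of a type and less RNA per cell cannot be told apart. The counts below stand beside 12.2% of all genes called lower and 9.15% higher in Irf2 KO. Those shares were 3.61% and 1.4% in Bcl6 cKO and 11% and 3.86% in Nr4a1 KO. The myeloid progenitor list (6 of 7 genes tested, 5 higher and 1 lower in Irf2 KO) summed to 3569 and 4554 CPM in Irf2 KO and 1685 and 1943 CPM in wild type, and 3 of its genes (Ctsg, Elane and Prtn3) are in the lists above. Its other calls were Elane, higher in Bcl6 cKO, and Ms4a3 and Ctsg, higher in Nr4a1 KO. The neutrophil list (6 of 10 lower in Irf2 KO, 2 in Bcl6 cKO) summed to 491 and 1131 CPM in Irf2 KO, 1183 and 993 in Bcl6 cKO, 2322 and 2062 in Nr4a1 KO and 2137 and 1793 in wild type. The nonclassical monocyte list (4 of 6 lower in Irf2 KO) summed to 187 and 144 CPM there and 339 and 463 in wild type, and 3 of its 6 genes, the targeted Nr4a1 among them, were lower in Nr4a1 KO. The macrophage list (1 of 5 tested genes lower, Adgre1) summed to 76.1 and 63.8 CPM in Irf2 KO and 148 and 154 in wild type, with C1qb at 0.55 to 5.06 CPM over all libraries. Adgre1 alone made 68.3 and 59.3 CPM in Irf2 KO and 138 and 145 CPM in wild type. Mertk, of the same list, was called higher in Bcl6 cKO, at 10.9 and 15.3 CPM against 0.65 and 0.52 CPM in wild type. The conventional dendritic cell list (2 of 4 lower) summed to 33.0 and 27.9 CPM in Irf2 KO and 77.1 and 84.7 in wild type. The plasmacytoid dendritic cell list (3 of 5 lower and 1, Bst2, higher) summed to 403 and 479 CPM in Irf2 KO and 161 and 245 in wild type, of which Bst2 alone made 349 and 417 CPM in Irf2 KO and 83.8 and 158 CPM in wild type. The classical monocyte list (4 of 7 lower) summed to 18632 and 21350 CPM in Irf2 KO and 29560 and 34198 in wild type. Of these sums Lyz2 alone made 11573 and 12697 CPM in Irf2 KO and 23089 and 26800 CPM in wild type. Ly6c2, of the same list and not called, was at 5003 and 6247 CPM in Irf2 KO and 3747 and 4755 CPM in wild type. Also of this list, Cd14 was called higher in Bcl6 cKO and Nr4a1 KO, and Ccr2 in Nr4a1 KO. The erythroid list (3 of 3 tested genes lower in Irf2 KO, 1 lower in Bcl6 cKO) summed to 20.9 and 21.7 CPM in wild type, 12.8 and 6.35 in Bcl6 cKO, 2.4 and 4.1 in Irf2 KO and 8.01 and 12.2 in Nr4a1 KO, a scale like that of Ctse and Ctso. The B cell list (4 of 5 lower in Irf2 KO, 2 in Bcl6 cKO, 1 in Nr4a1 KO) summed to 84.3 and 84.4 CPM in wild type, 42.4 and 53.0 in Bcl6 cKO, 43.8 and 38.1 in Irf2 KO and 90.4 and 57.9 in Nr4a1 KO. Most of the Irf2 KO sums was Cd79b, not called there, at 41.2 and 35.3 CPM against 47.9 and 54.1 CPM in wild type. Igkc made 44.4 and 16.3 CPM in Nr4a1 KO and 14.6 and 10.2 CPM in wild type. Nkg7, the 1 tested gene of the T or NK cell list, was called higher in all 3 knockouts, with 7.36 and 10.0 CPM in wild type and 13.1 to 20.8 CPM in the knockouts. The basophil or mast cell list (1 of 2 lower in Irf2 KO) summed to 20.4 CPM in both wild type libraries and 2.04 and 9.18 CPM in Irf2 KO.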

How the data were processed

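RNA of 8 libraries was measured by paired-end sequencing of amplified and sonicated cDNA, per the labels' protocols. The submitters' processing notes name STAR, featureCounts, Salmon and limma with build mm10. The authors' deposited table held 13789 rows, of which 45 repeats were dropped. Its log2 values are log2 CPM, deposited with 0.5 reads added, and undoing this gave whole reads within 0.01 for all values. The authors' deposited p-values, fold changes and signed fold score were used only as an alternative.

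A model of 4 group means over all 8 libraries (limma 3.58.1, trended empirical Bayes, R 4.3.3) was applied to the log2 values of the 13006 genes whose mean reached 1 CPM. P-values were adjusted by Benjamini-Hochberg over all genes tested, with a threshold of 0.05. The fit had 4 residual degrees of freedom, and a lone library in a leave-one-out fit was assumed to vary like the others. The procedure was also run on simulated reads with planted changes in 1 genotype at a time. The outcome is not given here, and no result rests on it. Of the table's genes 13729 matched GENCODE M21 (GRCm38). Promoters came from RefSeq on GRCm38.p6. Figures used matplotlib 3.10.9.

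Members and lists were chosen with earlier results of these data known. Named were all members, the targeted genes, up to 4 called genes per list and comparison, and the 5 genes most correlated with Ctso. Lgmn, Cd74 and marker genes were named after their values were seen. Alternatives were other filters, scalings, pseudocounts, weights, groups fitted, a replicate block, leaving out each library and the authors' test, and, added after seeing the data, limma voom and a GC content and length correction.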

Additional observations from a re-analysis of the deposited data

How the results depend on the processing

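Counts of called cathepsins depended on the setting as follows. Corrected for length and GC content, 2 rather than 4 were called in Irf2 KO against wild type. Without a trend of the prior variance 1 was called in Nr4a1 KO against wild type, 1 in Irf2 KO minus Bcl6 cKO, 2 in Irf2 KO minus Nr4a1 KO and 1 in Bcl6 cKO minus Nr4a1 KO. With only the 2 groups compared the last 2 counts were 2 and 1. Leaving out a library gave 0 in Bcl6 cKO, 3 to 5 in Irf2 KO and 1 to 2 in Nr4a1 KO against wild type, and 0 to 5, 3 to 5 and 1 to 2 between the knockouts in the same order. The cause of these changes was not tested. The correlation of replicate differences was above 0.1 in 2 of 6 pairs of genotypes (wild type with Nr4a1 KO, 0.164, and Irf2 KO with Nr4a1 KO, 0.118) and from -0.008 to 0.054 in the other 4, so the replicate numbers were not taken as pairs. With the number as a replicate block 0, 4 and 3 cathepsins were called against wild type and 3, 5 and 2 between the knockouts. The block added Ctss in Nr4a1 KO (adjusted p = 0.0463) and in Irf2 KO minus Nr4a1 KO (0.0161) and ended Ctse in Irf2 KO minus Bcl6 cKO (0.0559). Library 2 of Ctss was above library 1 in all 4 genotypes, by 0.275, 0.108, 0.435 and 0.442 on the log2 scale. Reversed signs were those of Ctso in Nr4a1 KO (0.0894 and 0.0987 under median centring and quantile normalization, -0.28 to 0.21 without a library) and of Ctsl in Irf2 KO (-0.58 to 0.70 without a library), neither called. All-gene counts ran from 32 to 930 in Bcl6 cKO (651 as reported, 244 without the trend and 412 after the GC correction), 1053 to 3216 in Irf2 KO (2778, and 1811 after the GC correction) and 1059 to 2346 in Nr4a1 KO (1931, and 1059 with only the 2 groups). With 2 libraries per genotype, small changes of a called size under 1.5-fold rest on few values.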
